A study of Mus musculus with 4 samples.

Results

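The 10 genes described here are immediate early genes: Fos, Fosb, Jun, Junb and Jund of the AP-1 family, the zinc finger genes Egr1 and Klf6, the ATF family gene Atf3, the oncogene Myc, and Ier3. They were taken by name, with every probe set of the array that names 1 of them and no other gene, and they are 10 of the 18193 genes named in this way. The 10 genes had 16 probe sets, 5 of them for Klf6 and 2 each for Jun and Jund, and all 16 passed the filter on low values. Of the 10, Ier3 encodes a regulator of cell survival that is not a DNA-binding factor, whereas the other genes encode transcription factors.

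Immediate early genes are transcribed within minutes of a growth factor, cytokine or stress signal, from factors that are already present in the cell. Many of their mRNAs are short-lived, because AU-rich elements in the 3′ untranslated region recruit proteins such as Zfp36, which in turn brings in the Ccr4-Not deadenylase. In liver they are known for their rapid induction after partial hepatectomy and in injury. Cnot3 belongs to this complex, and poly(A) shortening by the complex starts the decay of many mRNAs.

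The livers came from mice at 4 weeks after birth, on a C57BL/6 background, and RNA of the whole organ was hybridized to GeneChip Mouse Genome arrays, 1 array for each of 2 Cnot3KO and 2 Control livers. In the Cnot3KO mice a floxed Cnot3 allele was deleted by Cre recombinase under the albumin promoter, which acts in hepatocytes and in their fetal precursors. The study takes liver cells without recombination to be non-hepatic cells, such as cholangiocytes. It also states that the fetal precursors can become hepatocytes or cholangiocytes. Which other cells kept the gene was not tested here. The labels call the Control mice wild type, whereas the methods of the study list several genotypes used as controls, namely (flox/+), (flox/flox), Alb-cre;(+/+) and Alb-cre;(flox/+), and which of these each array holds is not given in the sources used here. The labels give the livers of a group as separate samples and say no more of how they were collected, so the p-values measure the spread between these livers only.

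Levels are log2 values of Robust Multi-array Average (RMA) intensities, a difference is Cnot3KO minus Control, and a value after ± is its standard error (SE). Each 95% interval is for a single probe set, with no adjustment for the number of probe sets. Tests were made in limma over all 38405 probe sets kept, with the Benjamini-Hochberg adjustment, and a probe set was called at an adjusted p under 0.05. A gene was read at its main probe set, which is the one with the highest mean. Cnot3 itself read 5.15 and 5.30 on the Cnot3KO arrays and 5.99 and 6.04 on the Control arrays, a difference of -0.79 ± 0.16 (adjusted p = 0.0372), and the call was lost whenever 1 array was left out (adjusted p from 0.0885 to 0.211). Its other probe set differed by -0.40 and was not called (adjusted p = 0.218), and whether either lies in the deleted exons is not known here. Alb, the albumin gene and a marker of hepatocytes picked apart from the rule for named genes, read 13.74 and 13.79 in Cnot3KO livers and 13.84 and 13.73 in Control livers (-0.02, adjusted p = 0.942). Pearson's r over probe sets (genes are not replicates) was 0.989 between the Cnot3KO arrays, 0.981 between the Control arrays and 0.937 to 0.948 across groups.

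Atf3, Klf6 and Ier3 were higher in Cnot3KO livers, by 5.46-fold, 5.02-fold and 3.37-fold. These were the 3 of the 10 genes that were called higher, and no gene was called lower. Among all 16758 genes with a probe set that passed the filter, 12.2% were called higher and 4.64% lower. Before adjustment, 7 of the 10 had a limma p under 0.05, all of them higher, where 22.9% of all genes were higher and 12.4% lower at that level. The methods' t-test before adjustment gave 2 of the 10 higher and 0 lower, against 14.1% and 9.39% of all genes. By probe set, 6 of the 16 were called higher, of which 4 were Klf6 probe sets, and 0 were called lower, where 8.48% of all probe sets kept were higher and 4.78% lower. The median difference over the 10 genes was 1.15, and over all genes it was 0.00.

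Fos, Jun, Atf3, Ier3 and Klf6 differed by more than 2-fold upward, which was 5 of the 10 genes, against 11.6% of all genes. No member was more than 2-fold lower, as 3.96% of all genes were. In 7 of the 10, namely these 5 with Jund and Myc, both Cnot3KO arrays lay above both Control arrays, a pattern seen in 34.8% of all genes. The reverse pattern, found in 30.3% of all genes, occurred in 0 of the 10. With 2 arrays a group, the smallest p that an exact permutation test can give is 0.333, so that no such test was used.

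**Figure D1:**
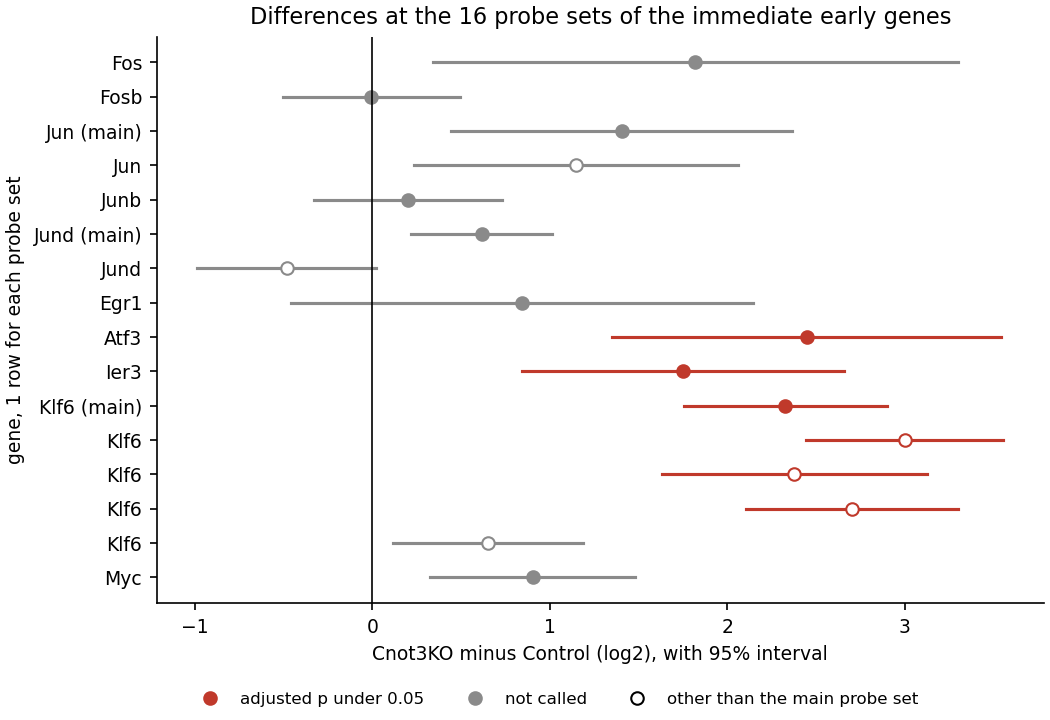
Difference between Cnot3KO and Control (log2 RMA intensity, x axis) at each of the 16 probe sets of the immediate early genes, 1 row for each probe set. Points are differences in limma and bars are 95% intervals for a single probe set; red marks an adjusted p under 0.05, grey a probe set that was not called, and open points are probe sets other than the main one. The 6 red points are those of Atf3 and Ier3 and 4 of Klf6.

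**Figure D2:**
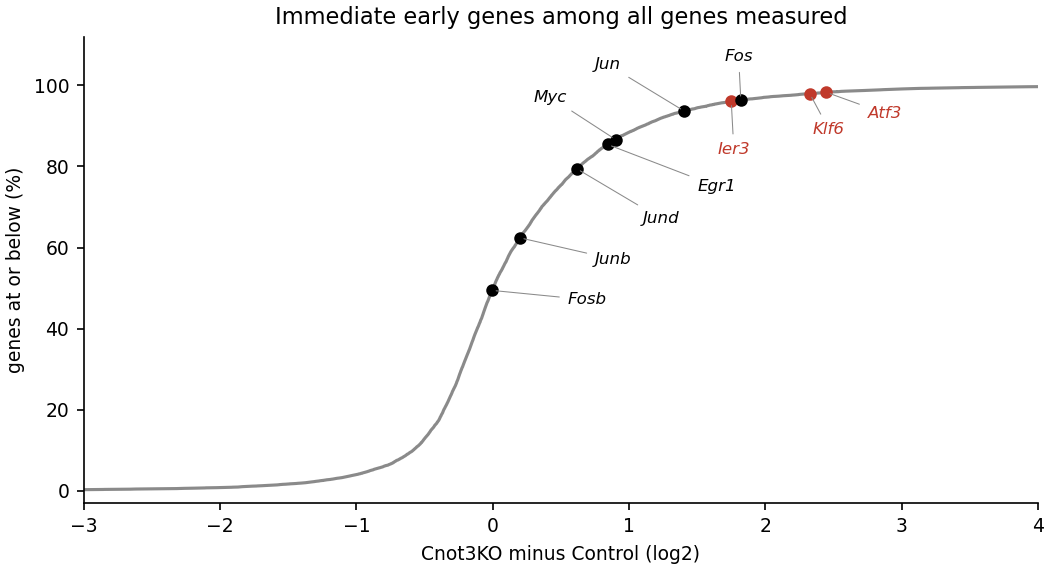
Share of genes (y axis, percent) whose difference between Cnot3KO and Control (x axis, log2) is at or below a given value, over 16758 genes. The 10 immediate early genes are marked as points on the curve, with Atf3, Klf6 and Ier3, the genes called higher, in red. Atf3, at 2.45, lies farthest to the right of the 10 and Fosb, at -0.00, farthest to the left.

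Promoter sequence was at hand for 8 of the 10 genes, all but Egr1 and Myc, as windows of 250 bases before to 50 bases after the start of the gene (RefSeq, build GRCm38.p6). Letters that ATF, CREB and Jun proteins are known to bind were searched on both strands, because these proteins are products of genes in the group. The letters TGACNTCA were in 2 of the 8 windows, those of Jun and Klf6, and in 8.83% of 32851 windows over all genes. The shorter TGACG, which lies within TGACNTCA where N is G, was in 4 of the 8, those of Fos, Fosb, Junb and Atf3, and in 20.8% of all windows. The AP-1 letters TGANTCA were in 0 of the 8 and in 7.81% of all windows. The CArG box, which serum response factor binds, was in 0 of the 8 and in 1.63% of all, and the serum response elements known for some of these genes can lie outside such a window. The 6 windows with a match are shown by a stretch of 60 bases upstream of the start, so that the 2 forms can be compared between the genes that were called and those that were not. Capitals mark the match, which is a match of letters and not a measured site. Klf6 (chr13:5861344-5861403, plus strand) and Jun (chr4:95052234-95052293, minus strand) hold the same 8 letters. Fos is at chr12:85473796-85473855 (plus strand), Atf3 at chr1:191183334-191183393 (minus strand), Fosb at chr7:19310074-19310133 (minus strand) and Junb at chr8:84978823-84978882 (minus strand). The stretches read 5′ to 3′ on the strand of the gene, and in Atf3 the match lies on the opposite strand.
Klf6: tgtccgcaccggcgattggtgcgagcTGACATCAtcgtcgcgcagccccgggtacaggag
Jun: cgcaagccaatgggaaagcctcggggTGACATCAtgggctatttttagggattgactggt
Fos: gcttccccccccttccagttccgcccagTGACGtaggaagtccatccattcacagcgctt
Atf3: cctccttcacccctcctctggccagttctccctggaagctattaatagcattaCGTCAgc
Fosb: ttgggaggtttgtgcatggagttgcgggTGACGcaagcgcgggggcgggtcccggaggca
Junb: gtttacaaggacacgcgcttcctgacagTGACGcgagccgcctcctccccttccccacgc

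Klf6, a Krüppel-like factor that is induced in liver injury and in activated stellate cells, read 6.44 and 6.72 on the Cnot3KO arrays and 4.49 and 4.02 on the Control arrays at its main probe set. The groups were well apart, and the difference of 2.33 ± 0.23 was larger than the spread within either group (adjusted p = 0.00727, 95% interval 1.75 to 2.90). Of its other probe sets, 1 read 6.50 and 7.0 in Cnot3KO livers and 3.69 and 3.82 in Control livers. Another read 6.15 and 6.60 in Cnot3KO livers and 4.34 and 3.65 in Control livers, and the next read 4.83 and 5.38 in Cnot3KO livers and 2.51 and 2.30 in Control livers. All 3 rose as well, by 3.0, 2.38 and 2.70 (adjusted p = 0.00441, 0.0115 and 0.00602). The remaining Klf6 probe set read 1.82 and 1.79 in Cnot3KO livers and 1.39 and 0.91 in Control livers. Its difference of 0.65 was not called (adjusted p = 0.108). This probe set and the one that rose by 2.38 are of types that can also bind other transcripts. Klf6 stayed called in all 4 fits with 1 array left out, which gave differences between 2.09 and 2.56 and adjusted p between 0.0151 and 0.0351.

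Atf3, a stress-induced ATF factor that mostly represses transcription, read 5.37 and 6.60 on the Cnot3KO arrays and 3.26 and 3.81 on the Control arrays. Both Cnot3KO values lay above both Control values, by a difference of 2.45 ± 0.44 (adjusted p = 0.0256, 95% interval 1.35 to 3.54). It had the largest difference of the 10 genes at their main probe sets. Without Control replicate 1 the difference was 2.17 (adjusted p = 0.112), and without Control replicate 2 it was 2.72 (adjusted p = 0.0665), so that either array decided the call. It held without either Cnot3KO array.

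Ier3, which protects cells from death in response to stress and growth factors, read 4.66 and 3.88 on the Cnot3KO arrays and 2.88 and 2.16 on the Control arrays. The groups did not overlap, and Ier3 rose by 1.75 ± 0.36 (adjusted p = 0.0364, 95% interval 0.84 to 2.66). Here too the call rested on single arrays. It was lost without Cnot3KO replicate 1 (1.36, adjusted p = 0.106), without Control replicate 1 (2.11, adjusted p = 0.0682) and without Control replicate 2 (1.39, adjusted p = 0.108).

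**Figure D3:**
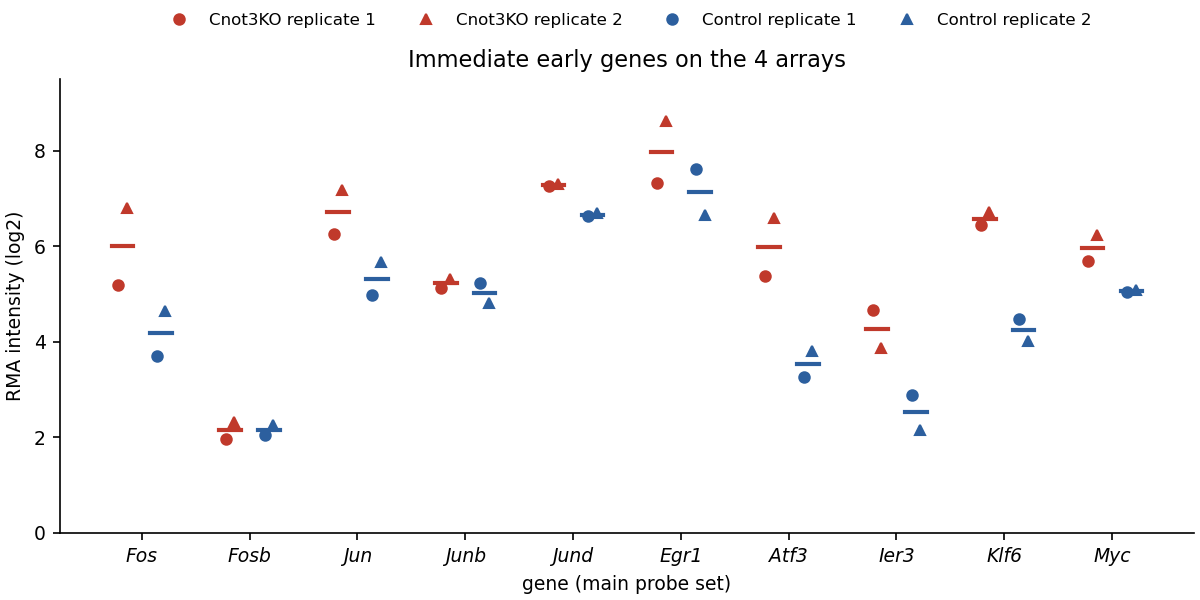
Levels of the 10 immediate early genes at their main probe sets (y axis, log2 RMA intensity) on the 4 arrays. Circles are replicate 1 and triangles replicate 2 of Cnot3KO (red) and Control (blue), and horizontal bars are group means; levels of different genes come from different probes and are not comparable. For Atf3, Ier3 and Klf6 the red points stand apart from the blue ones, and for Egr1, Junb and Fosb they overlap.

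The main Fos and Jun probe sets were also higher on both Cnot3KO arrays, without passing the test. Fos, which pairs with Jun proteins to form AP-1, read 5.20 and 6.80 in Cnot3KO livers and 3.70 and 4.65 in Control livers. Its difference of 1.82 ± 0.59 was the third of the 10 in size, after those of Atf3 and Klf6, but the arrays of each group were far apart and it was not called (adjusted p = 0.106, 95% interval 0.34 to 3.30). Fos would be called without Cnot3KO replicate 1 (2.62, adjusted p = 0.0296), and was at 1.02 without Cnot3KO replicate 2 (adjusted p = 0.243). Jun, the main partner of Fos, read 6.27 and 7.19 in Cnot3KO livers and 4.98 and 5.66 in Control livers. The difference was 1.41 ± 0.38 (adjusted p = 0.0716, 95% interval 0.44 to 2.37). Its other probe set followed the same order, with 5.91 and 6.82 in Cnot3KO livers and 4.93 and 5.50 in Control livers, and differed by 1.15 (adjusted p = 0.10). Without Cnot3KO replicate 1, the main Jun probe set would be called too (1.87, adjusted p = 0.0455).

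Myc and Jund had smaller differences with narrower spread. Myc, which drives cell growth and ribosome synthesis, read 5.68 and 6.23 in Cnot3KO livers and 5.03 and 5.08 in Control livers. The values did not overlap, and the difference of 0.90 ± 0.23 was not called (adjusted p = 0.0610, 95% interval 0.33 to 1.48). Jund, the Jun protein that is present in resting cells and restrains growth, read 7.26 and 7.29 in Cnot3KO livers and 6.63 and 6.70 in Control livers. The replicates of each group were close, and the difference of 0.62 ± 0.16 was not called (adjusted p = 0.0618, 95% interval 0.22 to 1.01). The other Jund probe set ran the opposite way, with 2.11 and 1.96 in Cnot3KO livers and 2.32 and 2.71 in Control livers (-0.48, adjusted p = 0.176), and with the mean of its probe sets Jund was at 0.07.

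Egr1, Junb and Fosb overlapped between the groups. Egr1, a zinc finger factor that responds to growth factors through the MAP kinase pathway, read 7.32 and 8.63 in Cnot3KO livers and 7.61 and 6.65 in Control livers. Cnot3KO replicate 2 was the highest and Control replicate 2 the lowest of the 4 arrays, and the difference of 0.84 ± 0.52 was not called (adjusted p = 0.322, 95% interval -0.46 to 2.14). Junb, a Jun protein that can oppose Jun in proliferation, read 5.13 and 5.32 in Cnot3KO livers and 5.24 and 4.82 in Control livers. Its difference was 0.20 ± 0.21 (adjusted p = 0.557), and the 95% interval of -0.33 to 0.73 leaves room for a difference either way. Fosb read 1.97 and 2.32 in Cnot3KO livers and 2.04 and 2.26 in Control livers, at -0.00 ± 0.20 (adjusted p = 0.990, 95% interval -0.51 to 0.50). These Fosb values were little above the 20th percentile of the arrays, which lay between 1.54 and 1.69, and no detection calls were used. The signs of the Junb and Fosb differences turned under other scalings: Fosb was at 0.11 and Junb at -0.01 with a repeat of quantile normalization.

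The livers of a group differed from each other more in these genes than in most. Between the Cnot3KO livers the median absolute difference was 0.668 over the 10 genes and 0.193 over all genes, and between the Control livers it was 0.509 over the 10 and 0.240 over all. In the Cnot3KO group replicate 2 was above replicate 1 in 9 of the 10 genes, where 48.2% of all genes were, and Ier3 was the exception. Fos led with a gap of 1.60 between the Cnot3KO livers, which 0.400% of all genes exceeded. Egr1 (1.31), Atf3 (1.22) and Jun (0.92) followed, with 0.889%, 1.11% and 2.92% of genes above them, and Ier3 was at -0.78, with 4.64% above it. In the Control group replicate 2 was above replicate 1 in 6 of the 10 genes (51.6% of all genes). Egr1 was 0.96 lower and Fos 0.95 higher in Control replicate 2 than in Control replicate 1, gaps that 3.83% and 3.90% of genes exceeded. Klf6 and Jund had gaps of 0.27 and 0.03 between the Cnot3KO livers, which 36.0% and 90.6% of genes exceeded. With 1 pair of livers in each group, these values describe the livers and were not tested.

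**Figure D4:**
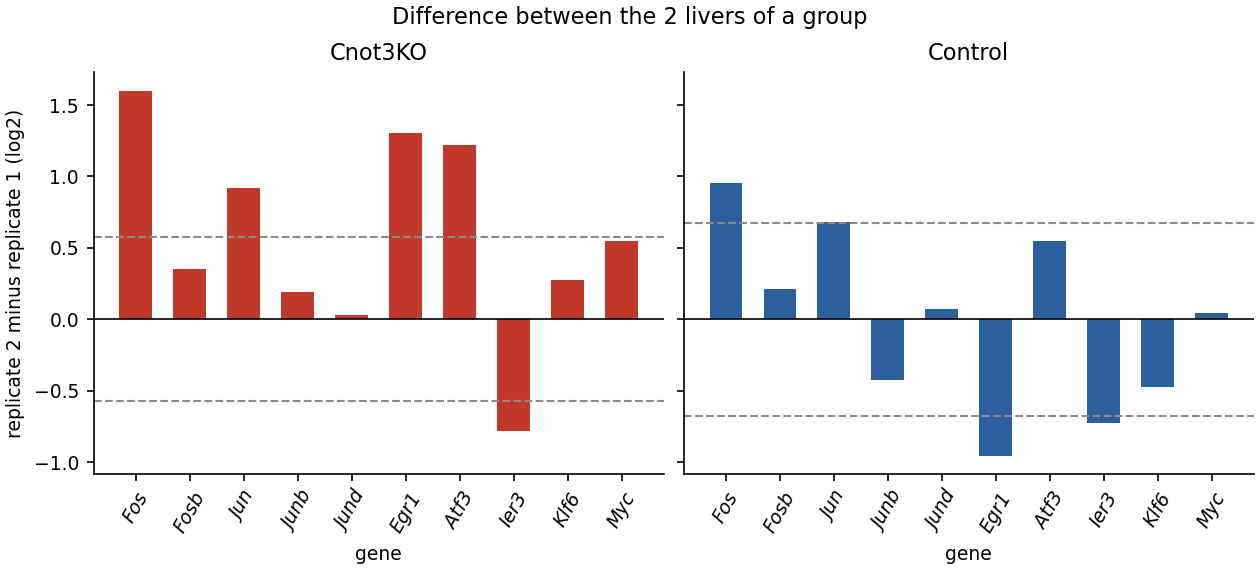
Difference between the livers of a group (replicate 2 minus replicate 1, log2, y axis) for each immediate early gene at its main probe set, with Cnot3KO on the left and Control on the right. Dashed lines mark the size that 90% of all genes stay under, 0.574 in Cnot3KO and 0.676 in Control. In Cnot3KO the bars of Fos, Egr1, Atf3, Jun and Ier3 pass the line, and in Control those of Egr1, Fos, Ier3 and Jun do.

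Among 47 other immediate early genes, 10 rose and 2 fell, with a median difference of 0.41. Btg2, which restrains proliferation and binds the Ccr4-Not deadenylase, read 9.34 and 9.89 in Cnot3KO livers and 5.56 and 6.59 in Control livers, a difference of 3.54 ± 0.39 (adjusted p = 0.00898). Id1, an inhibitor of helix-loop-helix factors, rose by 3.07 ± 0.19, Plk2, a polo-like kinase, by 2.79 ± 0.25 and Ccn1, a secreted matrix protein, by 1.76 ± 0.23. These 4 calls held whichever array was left out. The 2 that fell were Zfp36 (-1.31 ± 0.28, adjusted p = 0.0398) and Cebpb (-0.89 ± 0.19, adjusted p = 0.0378). Zfp36 binds AU-rich elements and read 6.78 and 7.52 in Cnot3KO livers and 8.38 and 8.53 in Control livers, below Control on both arrays. Leaving out 1 array left 5 to 10 genes of the list called higher and 0 to 2 lower. In this list replicate 2 was above replicate 1 in 25 of the 47 genes between the Cnot3KO livers, and the median absolute gap was 0.282.

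Of 24 receptors, kinases and factors that act upstream of immediate early genes, 1 was called higher and 3 lower, with a median of 0.03. Egfr, the receptor for epidermal growth factor, read 7.23 and 7.34 in Cnot3KO livers and 10.11 and 10.61 in Control livers, and fell by 3.07 ± 0.22 (adjusted p = 0.00422). Of its other probe sets, 3 were called lower as well, at -1.91, -2.61 and -1.21, and those at -0.48 and -0.32 were not called. Met, the receptor for hepatocyte growth factor, was at -0.99 ± 0.20, and Braf, a kinase of the MAP kinase pathway, was at -0.99 ± 0.19. The other Met probe set, at -0.14, was not called. Another Braf probe set was called lower (-0.80), and the rest, at -0.96 to 0.30, were not called. Mrtfa, a co-activator of serum response factor, was at 1.06 ± 0.17. The Egfr call held whichever array was left out, and the other 3 calls were lost without 1 array or another (0 higher and 1 to 3 lower over the 4 fits). Srf, which binds the CArG box, read 5.56 and 5.57 in Cnot3KO livers and 5.70 and 5.71 in Control livers (-0.14, adjusted p = 0.574), and was picked for mention once its values were known.

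Of 13 partners of AP-1, 2 rose and 0 fell (4 and 0 at an unadjusted p under 0.05). Atf7, which can pair with Jun, was at 1.29 ± 0.28 (adjusted p = 0.0399), and its other probe set was at -0.25. Nfe2l2, the regulator of the antioxidant response, was at 1.05 ± 0.18 (adjusted p = 0.0244). Both calls rested on single arrays, since 0 or 1 gene of the list was called higher with 1 array left out. Of 17 genes listed as AP-1 targets, 11 rose and 0 fell (13 and 1 at an unadjusted p under 0.05), with a median of 1.36. Mmp12 and Mmp13, metalloproteinases of the matrix, rose by 4.22 ± 0.36 and 3.85 ± 0.38 (adjusted p = 0.00569 and 0.00741). Tnfrsf12a, the receptor for Tweak, rose by 3.23 ± 0.43 and Lgals3, a lectin of macrophages and ductal cells, by 3.01 ± 0.21. These 4 calls held whichever array was left out, while the count over the list was 6 to 10. Some of these genes, such as Mmp12, are also expressed by macrophages. Between the Cnot3KO livers, replicate 2 was above replicate 1 in 4 of the 17 targets.

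Of 12 genes of the Myc network, 0 rose and 1 fell (2 and 1 at an unadjusted p under 0.05). Max, the partner that Myc needs to bind DNA, was at 0.49 ± 0.19 (adjusted p = 0.149), and was also picked with its values known. Mlxipl, which responds to glucose in hepatocytes, fell by 1.71 ± 0.19 (adjusted p = 0.00923) and held whichever array was left out. Of 22 genes listed as Myc targets, 2 rose and 0 fell (7 and 1 at an unadjusted p under 0.05), with a median of 0.35. They were Cdk4, a kinase of the cell cycle (0.90 ± 0.17, adjusted p = 0.0276), and Mybbp1a, a nucleolar protein (0.68 ± 0.16, adjusted p = 0.0479). Both calls were lost whichever array was left out.

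Of 18 other KLF and EGR genes and their co-regulators, 0 rose and 3 fell (4 and 5 at an unadjusted p under 0.05), with a median of -0.25. Klf12 was at -1.34 ± 0.17, Klf15, a regulator of gluconeogenesis and amino acid metabolism, at -1.40 ± 0.17, and Klf1, a factor of red cell precursors, at -1.42 ± 0.31. With 1 array left out, 0 to 2 genes of the list were called higher and 1 to 3 lower. Of 12 genes of the stress pathways around Atf3, 0 rose and 3 fell (1 and 4 at an unadjusted p under 0.05). Chac1, which degrades glutathione, read 4.55 and 4.21 in Cnot3KO livers and 6.18 and 6.05 in Control livers, and fell by 1.74 ± 0.19 (adjusted p = 0.00918). Atf4, the factor that induces Atf3 when translation is inhibited, was at -0.90 ± 0.16 (adjusted p = 0.0262), and Atf5 was at -1.08 ± 0.16 (adjusted p = 0.0174). The Chac1 call held whichever array was left out, and that of Atf4 was lost with each.

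Of 12 genes listed as AU-rich decay factors, 0 rose and 1, Zfp36, fell (0 and 2 at an unadjusted p under 0.05). The median was -0.12, and not all of the 12 encode proteins that bind AU-rich elements. The Zfp36 call stood in 1 of the 4 fits that leave out an array. Some genes stand in a pair of lists, such as Zfp36 here and among the other immediate early genes, and Klf1 also among the erythroid markers. Where limma called 0 genes of the lists above in a direction, the methods' t-test before adjustment gave 1 gene for the AP-1 targets that were lower and for the Myc network genes that were higher, and 0 for the others. The lists are read beside the 12.2% of genes that were higher and the 4.64% that were lower.

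**Figure D5:**
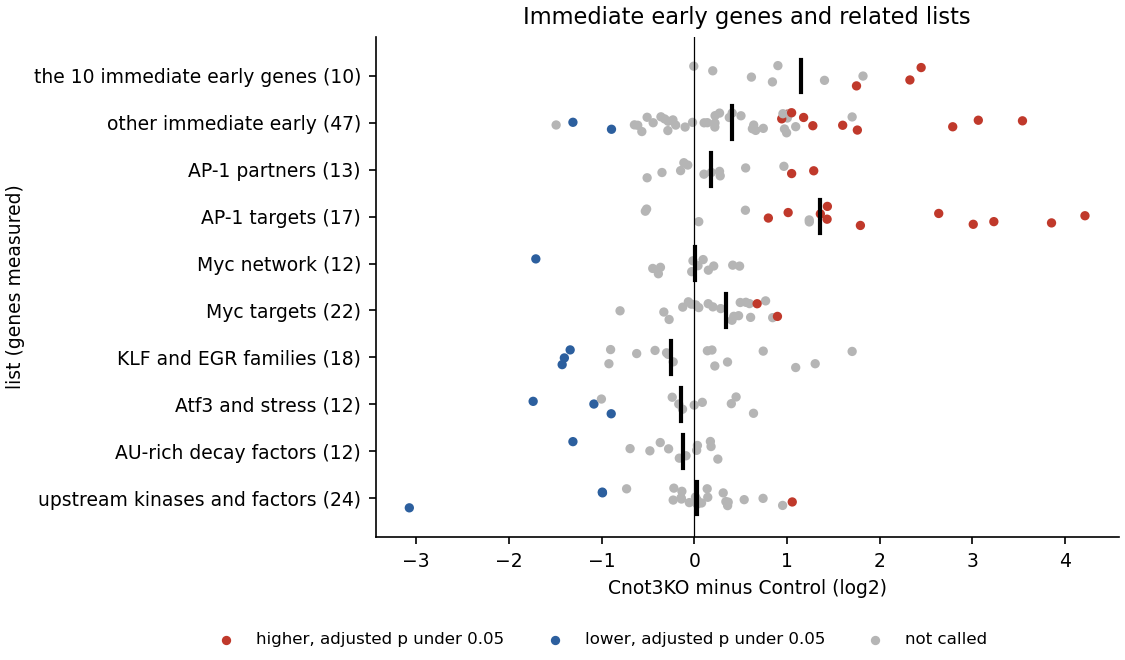
Differences between Cnot3KO and Control (x axis, log2) for the 10 immediate early genes (top row) and 9 related lists, 1 point for each gene measured, with the number measured in parentheses and vertical position within a row jittered. Black bars are list medians; red and blue mark genes called higher and lower at an adjusted p under 0.05, grey those not called. The medians of the 10 genes (1.15) and of the AP-1 targets (1.36) lie to the right of the other rows.

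Markers of other liver cells moved between the groups as well, and immediate early genes are expressed in all these cells. Summed linear intensities of 10 stellate cell and fibroblast markers were 5972 and 4473 in Cnot3KO livers and 2270 and 1842 in Control livers, and 7 of the 10 rose. For 7 cholangiocyte markers the sums were 1157 and 829 in Cnot3KO livers and 62.6 and 53.3 in Control livers, and 6 rose. Macrophage markers summed to 4401 and 5172 in Cnot3KO livers and 2572 and 2573 in Control livers, and of 16, 6 rose and 1, Cd163, fell (-3.87 ± 0.23). Leaving out 1 array left 2 to 6 stellate, 4 to 7 cholangiocyte and 2 to 5 macrophage markers called higher. Prom1 (5.35 ± 0.45) and Tspan8 (4.63 ± 0.38) led the cholangiocyte markers, and the other Tspan8 probe sets, at -0.06 to 1.01, were not called. Lum (2.40 ± 0.25) and Col1a1 (1.90 ± 0.31) led the stellate markers, and Ms4a7 (2.44 ± 0.18) and Cd68 (2.34 ± 0.23) those of macrophages. Neutrophil markers summed to 227 and 157 in Cnot3KO livers and 111 and 115 in Control livers. Ltf and S100a8 were the 2 of 9 called higher, and both calls were lost without 1 array or another.

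Erythroid markers moved the other way, with sums of 93.2 and 146 in Cnot3KO livers and 506 and 469 in Control livers. Of 6, 3 were lower, led by Alas2 (-2.57 ± 0.34). Each of these erythroid calls was lost without 1 array or another, and the Alas2 difference then stayed between -3.05 and -2.08. Hepatocyte markers summed to 77475 and 78251 in Cnot3KO livers and 76367 and 75831 in Control livers. Apob was the 1 of 12 that fell (-1.13 ± 0.21), and its call was lost without 1 array or another. The order of the groups turned with the mean log2 level of the hepatocyte markers. This level was 11.8845 and 11.9961 in Cnot3KO livers and 12.1814 and 12.2383 in Control livers. The unadjusted limma p was under 0.05 in 1 hepatocyte marker that was higher and 3 that were lower. Both Cnot3KO arrays lay above both Control arrays in 3 of these markers and below them in 6. Of 10 endothelial markers none was called (sums 1224 and 1128 in Cnot3KO livers and 1005 and 1193 in Control livers, 0 at an unadjusted p under 0.05), and Lyve1 had the largest difference (0.73, adjusted p = 0.369). Of 9 lymphoid markers none was called either (sums 88.2 and 110 in Cnot3KO livers and 103 and 89.6 in Control livers, with unadjusted p under 0.05 in 2 that were higher and 1 that was lower), and Gzma had the largest (0.80, adjusted p = 0.0928). The 10 immediate early genes summed to 671 and 1147 in Cnot3KO livers and 453 and 382 in Control livers. Egr1, which was not called, gave a large part of these sums, with 160 and 396 in Cnot3KO livers and 196 and 101 in Control livers. The mean log2 level of the 10 was 5.53 and 6.10 in Cnot3KO livers and 4.59 and 4.58 in Control livers. Within the Cnot3KO group the sum of the 10 genes was higher in replicate 2, as were those of the macrophage, lymphoid, erythroid and hepatocyte markers, while the stellate, cholangiocyte, neutrophil and endothelial sums were higher in replicate 1. The endothelial order turned with the mean log2 level, which was 6.35 in replicate 1 and 6.39 in replicate 2. Of the genes called, Ier3 was higher in replicate 1, and Atf3 and Klf6 in replicate 2. The part of these cells in the levels of Atf3, Ier3 and Klf6 was not tested. In whole liver, more cells of a type and more RNA in each cell cannot be told apart.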

How the data were processed

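Total RNA was hybridized to GeneChip Mouse Genome arrays (Affymetrix), 1 for each of 4 livers. The authors computed probe set intensities with RMA (version not given in the sources used here) and deposited them on the linear scale as intensity values, which were turned to log2 here without an added constant. RMA draws values together at low signal, so folds of dim probe sets are imprecise, and the number of arrays limits precision. The sources used here do not say whether further arrays entered the normalization.

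Probe sets at or under the 20th percentile on all 4 arrays were left out, which kept 38405 of 45037. A single gene was named by 34945 probe sets, several by 932 and none by 9160, and 34741 matched a reference table by Entrez identifier. Tests used lmFit and eBayes in limma 3.58.1 (R 4.3.3), 2-sided, with the Benjamini-Hochberg adjustment, and the fit was tested on simulated data. The median SE was 0.192. Tables and figures were made in Python 3.11.15. Named were all members, up to 4 called genes of each of 18 other lists except the ribosomal proteins, which served only for centring, the gene of largest difference where a list had no call, and Cnot3. Cebpb was named outside this rule, as a gene of the other immediate early list that was called lower. Other names are marked. The members and lists were chosen with earlier results of these data known. No p is given for a list.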

Additional observations from a re-analysis of the deposited data

How the results depend on the processing

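Over 18 alternatives, the median difference over the 10 genes kept its direction and stayed from 0.786 to 1.43. A block for replicate number, the other priors, the t-test and the other thresholds cannot move this median, since they change only the tests. Fits without a filter or without _x_at and _s_at probe sets left the main probe sets of the 10 as they were. The median was 1.15 in all of these, so they say nothing on its stability. The 3 calls (Klf6, Atf3 and Ier3) stood without a filter, with a mean above the 50th percentile, with each of the 3 scalings, with the probe sets of type _x_at and _s_at removed, and with both other priors. The number of genes called higher was 1 at an adjusted p under 0.01 and 6 under 0.10. With the methods' t-test it was 0 after the Benjamini-Hochberg adjustment and 2 (Klf6 and Jund) at an unadjusted p under 0.05. With 1 array left out it ranged from 1 to 4, and the lone array of a group was then assumed to vary like the other group. Of the genes' probe sets, 3 were called higher at an adjusted p under 0.01 and 0 with the adjusted t-test. Of all probe sets, 0 higher and 1 lower passed the adjusted t-test, 3860 were higher and 3977 lower with the unadjusted one, 707 were higher and 263 lower at an adjusted p under 0.01, and 4967 were higher and 3551 lower under 0.10. Without 1 array, 1194 to 1973 were higher and 508 to 1394 lower.

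The difference of Fosb was 0.114 with a repeat of quantile normalization, 0.0337 with centring on array medians, and -0.179 to 0.169 with 1 array left out (0.169 without Cnot3KO replicate 1 and 0.101 without Control replicate 2). That of Junb was -0.00673 with quantile normalization and -0.0129 to 0.413 with 1 array left out (-0.0129 without Control replicate 2). None of these passed the test, and the cause was not tested. Myc was called when the probe sets of each gene were averaged (adjusted p = 0.0471).

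The replicate number is not said to mark anything shared, and same-numbered deviations from the group means correlated at 0.232 across probe sets. With 2 arrays a group, replicate 2 gives the same value as replicate 1, so this is a single comparison. With the replicate number as a block, 5 genes were called higher, Fos (adjusted p = 0.027) and Jun (adjusted p = 0.0253) beside the 3. Over all probe sets kept, 2967 were then higher and 1716 lower, against 3258 and 1837 in the main fit. Of the other genes named above, Cnot3, Cebpb, Atf7, Klf1 and Mybbp1a lost their calls with the block. Alternatives for genes of the other lists were added after the data were seen, and none turned a sign.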
